A study of Mus musculus with 8 samples.

Results

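The clustered protocadherins are 3 neighbouring gene arrays, alpha, beta and gamma, on mouse chromosome 18. They were taken here as the protein-coding genes whose symbol starts with Pcdha, Pcdhb or Pcdhg, which gave 57 of 21887 protein-coding genes: 14 alpha, 22 beta and 21 gamma. A gamma pseudogene, Pcdhgb8, was not a member. In GRCm38 coordinates the alpha array ran from 36930285 to 37188897 on chromosome 18, the beta array from 37264998 to 37521419 and the gamma array from 37661775 to 37841873. The measurement was the percent of a stretch of DNA lying under peaks of histone H3 trimethylated at lysine 36 (H3K36me3), called coverage below.

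Clustered protocadherins are cell adhesion proteins, best known from neurons, where each cell uses a small set of them as a surface identity that guides self-avoidance and synapse formation. Each alpha or gamma gene has its own promoter and a large variable exon that encodes the extracellular cadherin repeats, the membrane span and part of the cytoplasmic tail. That exon is spliced to a few constant exons at the end of the array, which all genes of the array share. Beta genes have no constant exons, and each is essentially a lone exon. The C-type genes (Pcdhac1, Pcdhac2, Pcdhgc3, Pcdhgc4, Pcdhgc5) end the alpha and gamma arrays and are regulated apart from the others. H3K36me3 is laid down by Setd2, the methyltransferase that travels with elongating RNA polymerase II, and normally marks the bodies of transcribed genes.

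The cells were bone marrow stromal cells (BMSCs) at passage 2 of C57BL/6J background whose Setd2 alleles are floxed (Setd2 fl/fl), in every group. Control cells received a lentivirus for GFP (called WT) and the others a lentivirus for Cre (called KO), and both were selected for 4 days in 2 µg/ml puromycin. Chromatin was fixed for 10 min in 1% formaldehyde. Each genotype had 2 H3K36me3 ChIP-seq libraries, with 1 Input and 1 IgG library as controls. Whether the replicates are separate cultures is not stated, and p-values therefore reflect only how far these libraries differ, which may be technical. An exact permutation test of 2 against 2 libraries cannot go below p = 0.333. Cells that escaped Cre and mark that remained in cells without Setd2 cannot be told apart in bulk chromatin. Values are given in the order WT replicate 1, WT replicate 2, KO replicate 1, KO replicate 2, for peaks called against Input unless IgG is named.

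H3K36me3 coverage differed between the genotypes over the whole genome. Peaks covered 8.91%, 8.65%, 2.63% and 3.47% of the genome and, on average, 26.3%, 25.5%, 2.92% and 3.72% of a coding gene. The lists held 242745, 246258, 122589 and 159459 peaks. The 13 stromal markers averaged 43.6% and 40.01% in WT against 2.27% and 1.99% in KO. Of these, 10 entered the limma fit described below, and each of the 10 fell. So did 92.6% of all genes in that fit (91.4% with IgG lists). A gene with little KO coverage could enter the fit only through high WT coverage. The counts of falling markers, here and in the next sentences, therefore do not set the markers apart from other genes. With peaks called against IgG the stromal means were 20.5%, 18.01%, 0.676% and 0.738%, only 6 could be tested (all fell), and Vim and Col1a1 had no peak in any library. Haematopoietic markers were also covered, with means of 29.4%, 38.7%, 1.96% and 8.01% over 8 genes, and 6 of the 7 tested fell (16.6%, 23.7%, 1.61% and 7.71% and 4 of 5 with IgG). Neuronal markers had means of 5.49% and 5.31% in WT, and of the 10 only Tubb3 could be tested, which fell and had no peak in any library with IgG. The part of other cell types in the protocadherin values was not tested. Coverage of Setd2 itself was 66.4%, 60.5%, 0.690% and 1.70%, which describes the mark on the gene and does not check its deletion.

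The gamma array carried most of the H3K36me3 of the locus in control cells. It was covered at 33.3% and 34.5% in WT against 5.33% and 6.03% in KO (33.9% ± 0.805 and 5.68% ± 0.492, SD, n = 2 each; exact permutation test, two-sided, p = 0.333). The difference of -28.2 points was far wider than the spread within either genotype, and the groups did not overlap. Relative to each library's mean coverage of coding genes, however, the mean difference turned positive for 17 of the 21 gamma genes. Their spans nest, so these are not 17 separate observations. In the limma fit described below, 0 gamma genes passed as higher after that scaling, beside 2.41% of all tested genes. The alpha array showed no such separation, at 2.98%, 1.92%, 1.38% and 5.31%. The beta array was at 3.42%, 3.46%, 3.74% and 3.83%, slightly higher in KO by 0.350 points (0.00546 points with peaks called against IgG). Gamma coverage exceeded alpha coverage by 30.4 and 32.6 points in WT and by 3.95 and 0.720 points in KO (exact permutation test of that difference, two-sided, p = 0.333). Counting each base of the 3 arrays once, 11.0%, 10.9%, 3.28% and 4.95% of the locus was covered. As a multiple of the covered share of the genome, the locus stood at 1.24, 1.26, 1.24 and 1.43, so on this relative scale the genotypes overlapped. On the same scale the gamma array stood at 3.74, 3.99, 2.02 and 1.74, beta at 0.384, 0.400, 1.42 and 1.11, and alpha at 0.334, 0.222, 0.526 and 1.53.

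**Figure D1:**
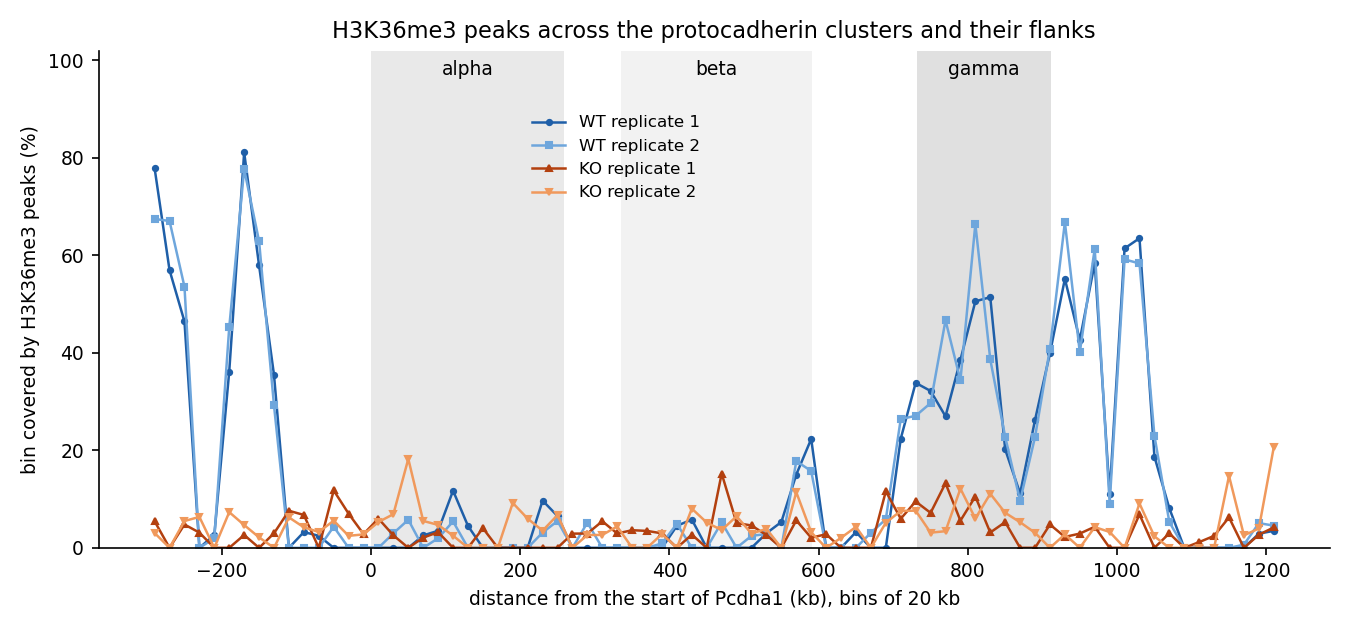
Percent of each 20 kb bin under H3K36me3 peaks (vertical axis) against distance in kb from the start of Pcdha1 (horizontal axis), with 1 line per library and the 3 arrays shaded. The WT lines are low over alpha and most of beta. They are high over gamma (33.3% and 34.5% of the array) and over the genes on either side. Both KO lines stay low in percent coverage. After scaling to mean coverage the mean difference turned positive for 17 of the 21 gamma genes, whose spans nest, and none of these passed. Divided by the covered share of the genome, the gamma array stood at 3.74 and 3.99 in WT against 2.02 and 1.74 in KO.

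The variable and shared parts of the gamma array were both covered in WT. The variable part was taken from the start of Pcdhga1 to the start of Pcdhgc5, since the gene table used gives spans without exons or strand. The rest of the array, 22.3 kb, is the span of Pcdhgc5 and holds its variable exon and the constant exons. The variable part was covered at 33.0%, 34.2%, 6.09% and 6.88%. The rest was covered at 36.1% and 36.3% in WT and had no peak in either KO library. Without its own first 2.5 kb, where the Pcdhgc5 variable exon is expected, the rest was still at 31.9% and 30.5% in WT and 0% in both KO libraries. The end of the array, with the exons used by every gamma transcript, was therefore covered in WT to about the same degree as the variable part. The residual KO peaks all lay in the variable part. That part makes up 157.8 of the 180.1 kb, however, and the array held only 14 and 18 KO peaks. So few peaks cannot show whether the 2 parts differed in KO. In alpha, the variable part was at 2.09%, 1.51%, 1.68% and 5.47% and the rest, 45.2 kb, at 7.17%, 3.82%, 0% and 4.53%, so the genotypes overlapped in both.

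**Figure D2:**
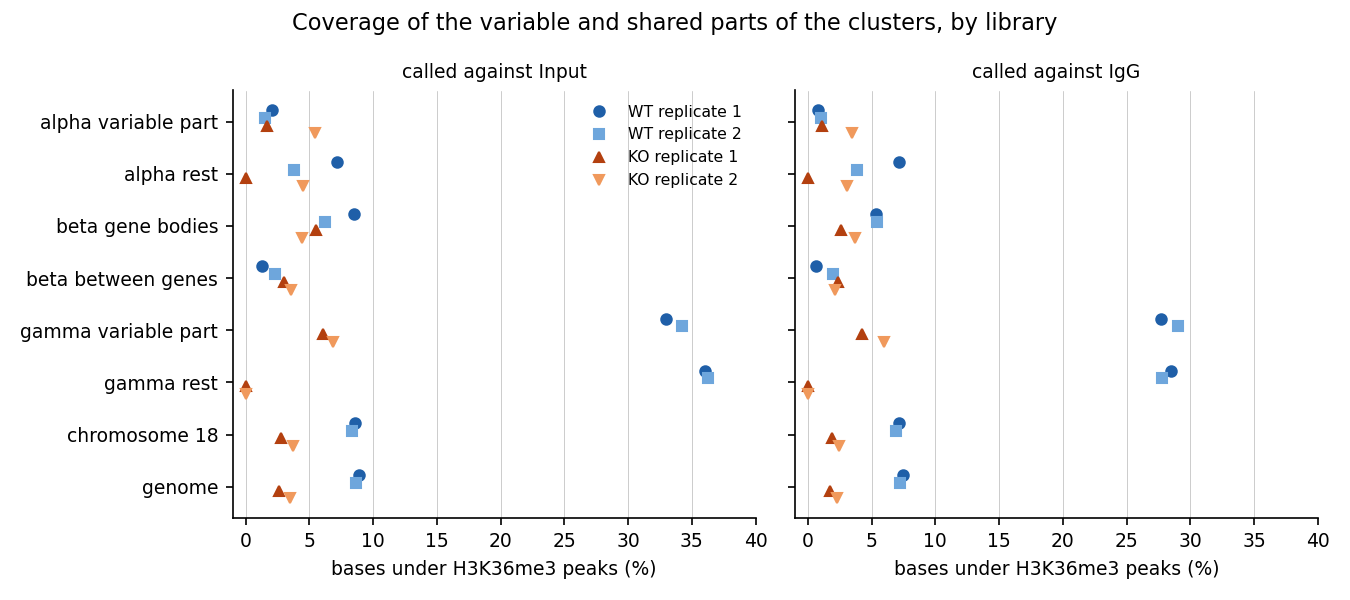
Percent of bases under H3K36me3 peaks (horizontal axis) for the parts of each array, chromosome 18 and the genome, with 1 point per library, for peaks called against Input (left) and IgG (right). The gamma variable part and gamma rest stand apart in WT, at 33.0% to 36.3% with Input, and gamma rest is at 0% in both KO libraries.

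In the limma fit over all genes, all 21 gamma members fell in percent coverage. After each library was divided by its mean coverage of coding genes, however, only Pcdhgc5 fell, beside 45.2% of all tested genes. A positive difference was then seen in 17 of the 21, none of which passed. The fit tested the 10809 coding genes covered at 10% or more on average, and 92.6% of them fell, so a fall was the rule for any tested gene. Of the 57 members, 26 passed that minimum (0 alpha, 5 beta, 21 gamma), and 24 of these fell. No member rose (0.555% of tested genes did). A member with little coverage in KO could pass only through high WT coverage, so these counts describe the tested members alone. The median gamma difference was -28.3 points, against -47.7 over all tested genes, and between 67.2% (Pcdhgc5) and 88.6% (Pcdhga12) of tested genes had a larger fall than a given gamma gene. Gamma spans nest inside each other and end within 10 bp of each other, so these rows share most of their bases and are not separate observations.

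The gamma spans ranged from 24.1% for Pcdhga12 to 36.2% for Pcdhgc5 in WT and from 0% to 5.71% in KO. Pcdhgc5, a C-type gene whose span is the end of the array, was covered at 36.1%, 36.3%, 0% and 0%. It had the largest fall of the gamma genes (-36.2 points, SE 1.87, limma adjusted p = 0.000283). It also fell after scaling to mean coverage, by 20.4 points (limma adjusted p = 0.00499). Division leaves KO values of 0% unchanged, so the direction of that scaled difference was fixed beforehand. Pcdhgc4, the C-type gene before it, differed by -34.3 points (SE 2.28, limma adjusted p = 0.000482). After scaling its difference was -15.5 points with a limma adjusted p of 0.0522. Pcdhga1, the A-type gene whose span takes in the whole array, differed by -28.2 points (SE 1.90, limma adjusted p = 0.000484). After scaling, Pcdhga1 differed by 6.05 points in the other direction and did not pass (limma adjusted p = 0.147). Pcdhga12, the last A-type gene, had the smallest fall, at -20.6 points (SE 2.22, limma adjusted p = 0.00172). With either WT library left out, Pcdhga10, Pcdhga11, Pcdhga12 and Pcdhgb7 no longer passed, with adjusted p between 0.0520 and 0.0877, and the other 17 gamma members did.

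The first 2.5 kb of each gene, a window sized to take in the variable exon, separates members whose spans overlap. In WT these windows were the most covered part of the gamma array. Together the 21 gamma windows were covered at 54.3%, 57.3%, 11.7% and 10.0%, and the variable part outside them at 23.4%, 24.1%, 3.23% and 5.18%. The excess of windows over the remainder was 30.9 and 33.2 points in WT and 8.42 and 4.86 points in KO (exact permutation test, two-sided, p = 0.333). Peaks of both WT replicates lay in 19 of the 21 gamma windows, and peaks of both KO replicates in 3. Among 17492 coding genes with a known strand on other chromosomes, 17.0% had window peaks from both WT replicates and 1.88% from both KO replicates. Coverage was higher in both WT than in both KO libraries in 18 of the 21 gamma windows, against 16.4% of those genes. Every gamma window after that of Pcdhga1 lies inside the spans of earlier gamma genes. The gene starts of that background are therefore an unlike comparison.

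Windows differed from gene to gene and between replicates. The A-type gene Pcdhga8 was covered at 66.3%, 98.9%, 0% and 22.0% of its window. The B-type gene Pcdhgb6 was at 37.6%, 96.0%, 27.8% and 10.5%. Such gaps between the 2 WT libraries were wide, so a ranking of neighbouring gamma genes does not hold up against the replicate spread. Pcdhga10 and Pcdhgb7, neighbours near the end of the A and B series, were alike in both WT libraries, at 64.7% and 74.8% and at 70.8% and 74.2%, with no peak in KO. Pcdhgb4 kept coverage in both KO libraries, at 88.2%, 54.0%, 21.2% and 44.9%, and the genotypes still did not overlap. Pcdhga3 went the other way in replicate 1, at 41.2%, 0%, 51.9% and 0%, and its groups overlapped.

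**Figure D3:**
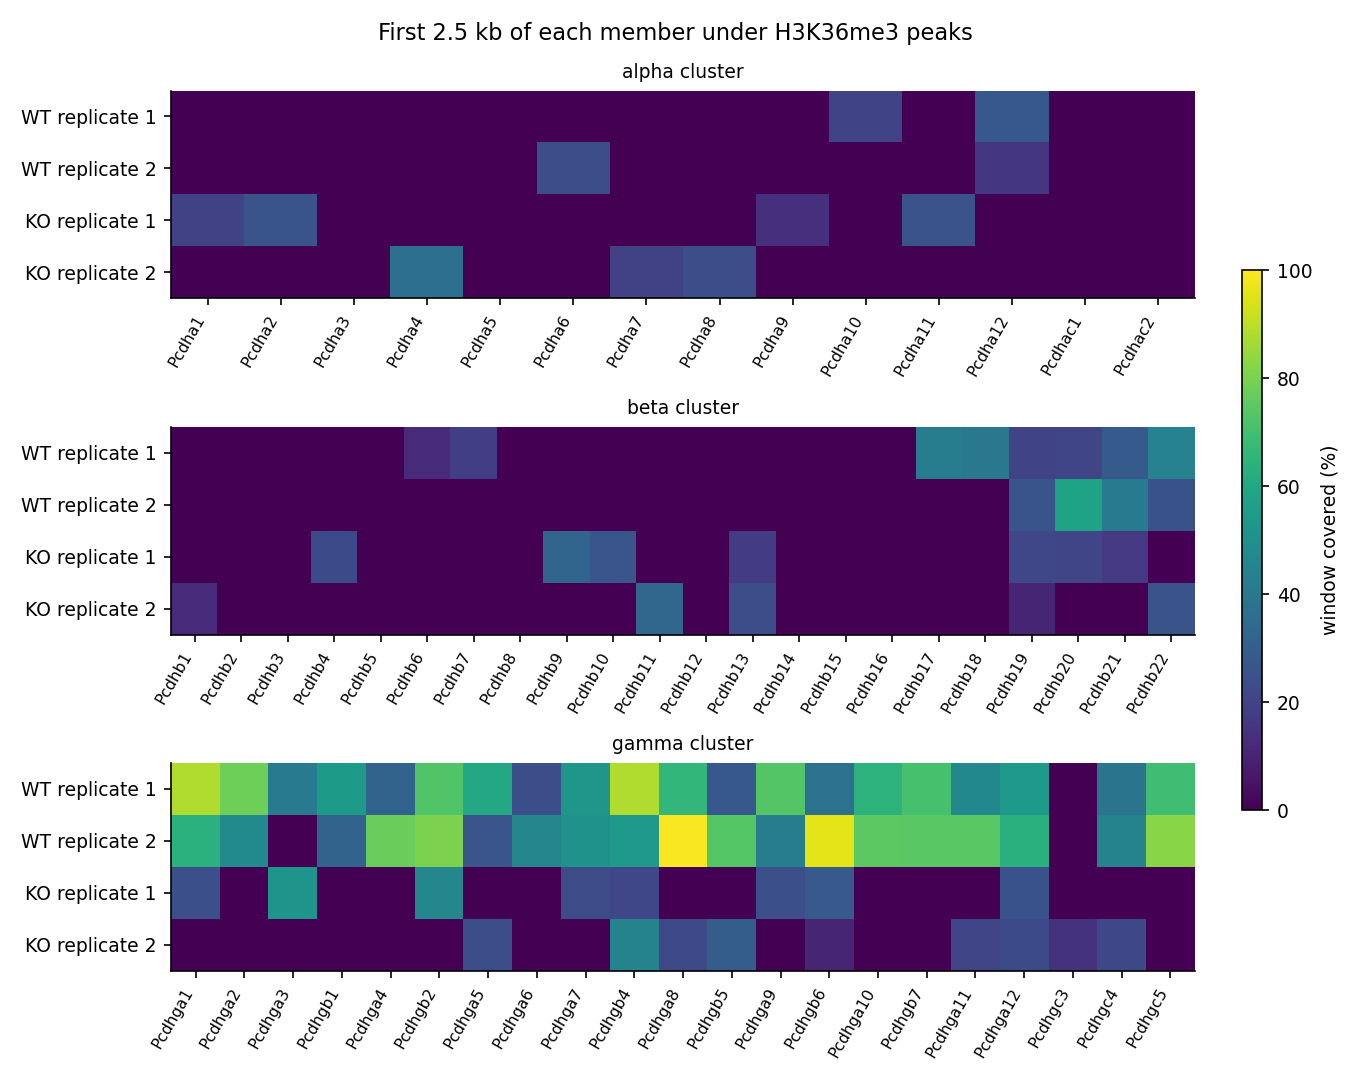
Percent of the first 2.5 kb of each of the 57 genes under H3K36me3 peaks (colour scale from 0 to 100), with libraries in rows and genes in their order along each array. The gamma windows are covered in at least 1 WT library in all but Pcdhgc3 (0% in both WT libraries), while alpha and beta hold scattered windows in every library apart from the last beta genes.

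The C-type gamma genes were not alike. The window of Pcdhgc3 had no WT peak and was at 14.8% in KO replicate 2. That of Pcdhgc4 was at 38.6%, 44.6%, 0% and 21.8% (0%, 29.2%, 0% and 21.8% with IgG), and that of Pcdhgc5 at 69.3%, 82.1%, 0% and 0%. The stretch from each gene's start to the next gene's start gave another direction for Pcdhgc3 than its window. It was at 14.9%, 7.29%, 0% and 5.62% of its 8.67 kb, with both WT values above both KO values. All 21 such gamma stretches held a peak in both WT libraries. In pieces picked after their values were seen, coverage ran at 39.8% and 42.5% in WT from Pcdhga1 to the start of Pcdhga12, then at 20.4% and 18.4% over the 40.8 kb up to Pcdhgc3. It was 18.05% and 18.1% from there to Pcdhgc5, before the 36.1% and 36.3% of the end of the array.

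The 18 A- and B-type gamma genes were lined up on their starts and averaged. Mean WT coverage was lowest upstream of the start, at 13.4% between 750 and 500 bp before it, and was already 32.5% in the last 250 bp before it. It rose to 46.8% in the first 250 bp and to 68.0% between 1750 and 2000 bp, and came down to 21.3% between 3750 and 4000 bp. Mean KO coverage was highest at 21.6%, between 1500 and 1750 bp. The highest bins of single libraries lay apart, so no common place is claimed. WT replicate 1 reached 67.8% between 500 and 750 bp and WT replicate 2 reached 79.0% between 2000 and 2250 bp. KO replicate 1 reached 29.3% between 1750 and 2000 bp and KO replicate 2 reached 18.9% between 1000 and 1250 bp. In this mean, the highest bin of every library thus lay downstream of the start.

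**Figure D4:**
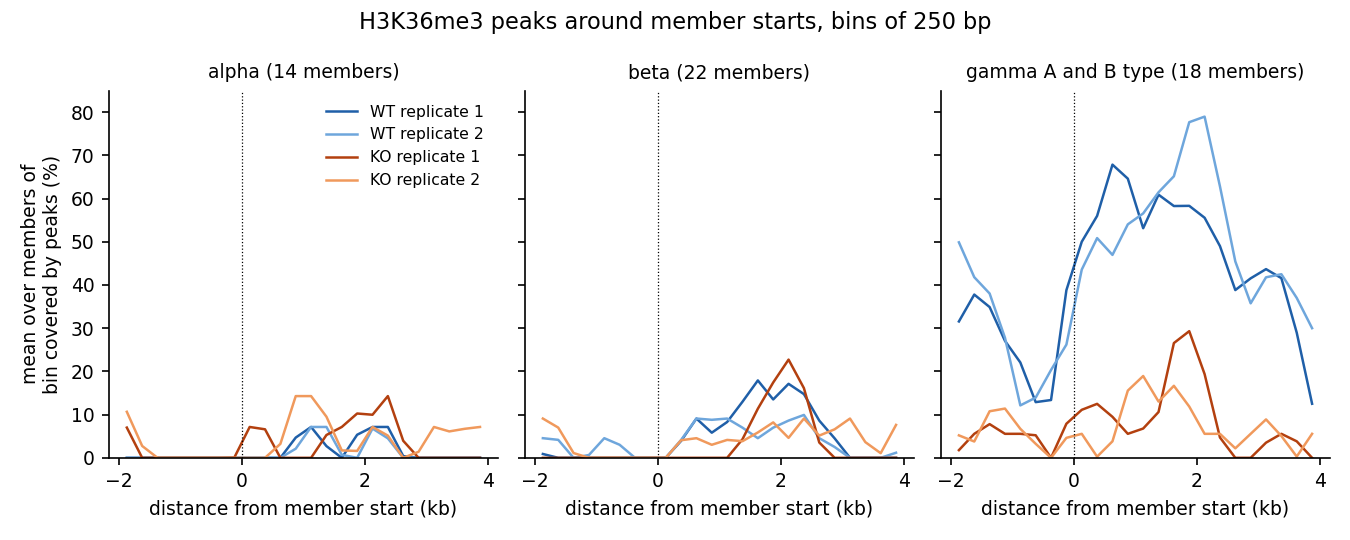
Mean percent of each 250 bp bin under H3K36me3 peaks (vertical axis) against distance in kb from the gene start, for the 14 alpha, 22 beta and 18 gamma A- and B-type genes, with 1 line per library. The gamma WT lines dip to 13.4% before the start and reach 68.0% (mean of the 2 libraries) within the first 2 kb, and the alpha and beta lines are low in all 4 libraries.

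The gamma array held 72, 73, 14 and 18 peaks, with median widths of 666, 705, 618 and 577 bp, near the 688, 668, 566 and 568 bp of the whole lists. Peaks over 1 kb made up 25% and 23.3% of the gamma peaks in WT, against 27.8% and 26.0% of the whole lists. Peaks over 2 kb made up 4.17% and 5.48% in WT, against 8.61% and 7.57%, and none of the few KO gamma peaks was that wide (0.0742% and 0.0690% of the whole KO lists). Bases shared by the 2 WT libraries were 51.4% of the gamma bases covered in replicate 1 and 49.7% of those in replicate 2, where each library covered 33.3% and 34.5% of the array. The KO libraries, at 5.33% and 6.03% of the array, shared 10.4% and 9.19%. Of the bases covered in a KO library, between 43.4% and 59.8% also lay under a peak of a given WT library. In alpha the shares were 28.2% and 43.7% for the WT pair and 10.2% and 2.66% for the KO pair, and in beta 17.6% and 17.4% for WT and 14.4% and 14.0% for KO. These shares grow with how much of an array is covered and are not comparable between arrays or genotypes.

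The beta genes fell into a covered end and a mostly bare remainder. In WT no peak lay on 14 of the 22 genes (25.6% of all coding genes had none). On 8 there was no peak in any library (3599 of 21887 coding genes had none). Beta genes are short, from 2.34 kb (Pcdhb8) to 5.27 kb (Pcdhb16). The coding genes were not matched to them in length, so these shares are an unlike comparison. From Pcdhb1 to Pcdhb16 the array was covered at 1.22%, 1.502%, 3.70% and 3.17%, and from Pcdhb17 to Pcdhb22 at 16.8%, 15.4%, 4.23% and 8.03%, a division made after the values were seen and therefore not tested. The beta genes themselves were at 8.47%, 6.22%, 5.49% and 4.46% and the DNA between them at 1.30%, 2.31%, 3.01% and 3.57%. The groups did not overlap in either, and the direction was opposite: WT was higher on the genes and KO was higher between them (exact permutation test, two-sided, p = 0.333 for each). When peaks under their list's median score were dropped, the beta genes were at 3.08%, 3.34%, 4.80% and 2.96%, so the groups overlapped and the mean difference turned.

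Of the 5 beta genes that could be tested, Pcdhb20, Pcdhb21 and Pcdhb22 fell. Pcdhb22, the gene nearest to gamma, was covered at 43.1%, 33.1%, 0% and 20.9% (-27.7 points, SE 8.85, limma adjusted p = 0.0441). Pcdhb20 was at 26.4%, 42.7%, 15.5% and 0% (-26.8 points, SE 8.58, limma adjusted p = 0.0445). Pcdhb21 was at 26.2%, 37.7%, 15.2% and 0% (-24.4 points, SE 7.36, limma adjusted p = 0.0379). In all 3 genes both WT values lay above both KO values, but the calls were fragile: none of them passed with a WT library left out, with the replicate number as a block (adjusted p = 0.0808, 0.0565 and 0.0668 for Pcdhb20, Pcdhb21 and Pcdhb22) or without the coverage minimum. Both WT values also lay above both KO values in 54.4% of all coding genes. With IgG lists Pcdhb21 was at 0%, 15.3%, 15.2% and 0%, below the minimum and with no difference between the genotypes beyond their spread. Pcdhb22 did not pass with those lists (limma adjusted p = 0.0542). Pcdhb20 did pass with them, at 43.1%, 42.7%, 15.5% and 0% (-35.1 points, limma adjusted p = 0.0107). After scaling to mean coverage the Input differences of all 3 genes turned positive, between 19.2 and 20.05 points, and none passed.

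The remaining beta genes showed no common pattern. Pcdhb19 was covered to a similar level in every library, at 10.8%, 13.8%, 12.7% and 9.97% (-0.94 points, limma adjusted p = 0.732). It was the only member that passed as higher in KO after scaling (44.5 points, limma adjusted p = 0.0423). Pcdhb18 was at 19.9%, 11.3%, 0% and 10.9% (-10.2 points, limma adjusted p = 0.158), and Pcdhb17 at 32.4% in WT replicate 1 and 0% in the other 3 libraries. Pcdhb6 and Pcdhb7 also had a peak in WT replicate 1 alone, at 8.58% and 17.0%. Pcdhb13 had no WT peak and was at 12.1% and 15.9% in KO. Without the coverage minimum it passed as higher in KO (14.0 points, limma adjusted p = 0.00988). Peaks in KO replicate 1 alone lay on Pcdhb4, Pcdhb9 and Pcdhb10, at 18.7% to 26.6% (0% with IgG), and in KO replicate 2 alone on Pcdhb1 and Pcdhb11, at 12.4% and 22.9%. Beta variable exons are near copies of each other, as are many in alpha and gamma, and how reads that fit several of them were assigned is not given in the sources used here, so values of single genes are uncertain.

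The alpha genes were nearly bare. Their spans were at 2.46% to 5.65% in WT and 1.91% to 3.36% in KO as genotype means, and none reached the 10% minimum for the test. In none of the 14 spans did both WT values exceed both KO values, which 54.4% of all coding genes did, but the alpha spans nest and end within 1240 bp of each other, so they are not 14 separate observations. The alpha windows together were at 3.42%, 2.84%, 6.07% and 5.69%. Pcdha12 was the only alpha gene with a window peak in both WT libraries (27.5%, 15.8%, 0% and 0%, and 0% in every library with IgG), and no alpha window had a peak in both KO libraries. Among C-type alpha genes, Pcdhac2 was covered at 7.38%, 3.93%, 0% and 4.66% of its span, which holds the constant exons, and had no peak in its window. Pcdhac1 had none in its window either.

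Peaks called against IgG gave the same order of the arrays, with lower coverage. Gamma was at 27.8%, 28.9%, 3.70% and 5.25%, its rest at 28.5%, 27.8%, 0% and 0%, alpha at 1.91%, 1.54%, 0.946% and 3.43%, and beta at 2.04%, 2.996%, 2.43% and 2.62%. The gamma windows were at 47.3%, 55.0%, 9.26% and 8.29%, and the variable part outside them at 19.1%, 17.6%, 1.68% and 4.74%. A window peak lay in both WT libraries in 16 of the 21 gamma genes (13.7% of genes with a known strand) and in both KO libraries in 2 (0.949%), and 15 windows were higher in both WT than in both KO libraries (13.3%). Of 24 members tested with these lists 22 fell, namely all 21 gamma genes and 1 beta gene (Pcdhb20), beside 91.4% of tested genes.

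Of the coding genes within 300 kb, 12 of 15 before the locus and 4 of 5 after it were covered in WT at or above the level of the gamma array (10 and 4 with IgG lists). Zmat2, a splicing factor gene 131 kb before Pcdha1, was at 70.6%, 66.9%, 0% and 0%, but at a WT mean of only 4.81% with IgG. Between alpha and beta 0%, 1.36%, 3.75% and 2.14% of the DNA was covered, and between beta and gamma 7.37%, 7.90%, 3.83% and 3.38%. That second gap holds Slc25a2, a mitochondrial ornithine carrier gene, at 95.5%, 96.0%, 48.4% and 0% (limma adjusted p = 0.0235), and Taf7, a subunit gene of the general transcription factor TFIID, at 40.8%, 61.2%, 0% and 16.6% (limma adjusted p = 0.0184). Both fell. Just 1.73 kb beyond gamma, the formin gene Diaph1 was at 39.0%, 41.6%, 3.10% and 2.23%, close to the WT level of gamma itself, and the histone deacetylase gene Hdac3 after it at 77.5%, 72.0%, 0% and 0%. Of these neighbours, 12 of 13 tested before the locus and 4 of 4 after it fell, beside 92.6% of all tested genes. With IgG lists 9 of 12 and 4 of 4 fell, beside 91.4%. The exception with Input was Ndufa2, a complex I subunit gene, at 0.709%, 55.7%, 0% and 0%.

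**Figure D5:**
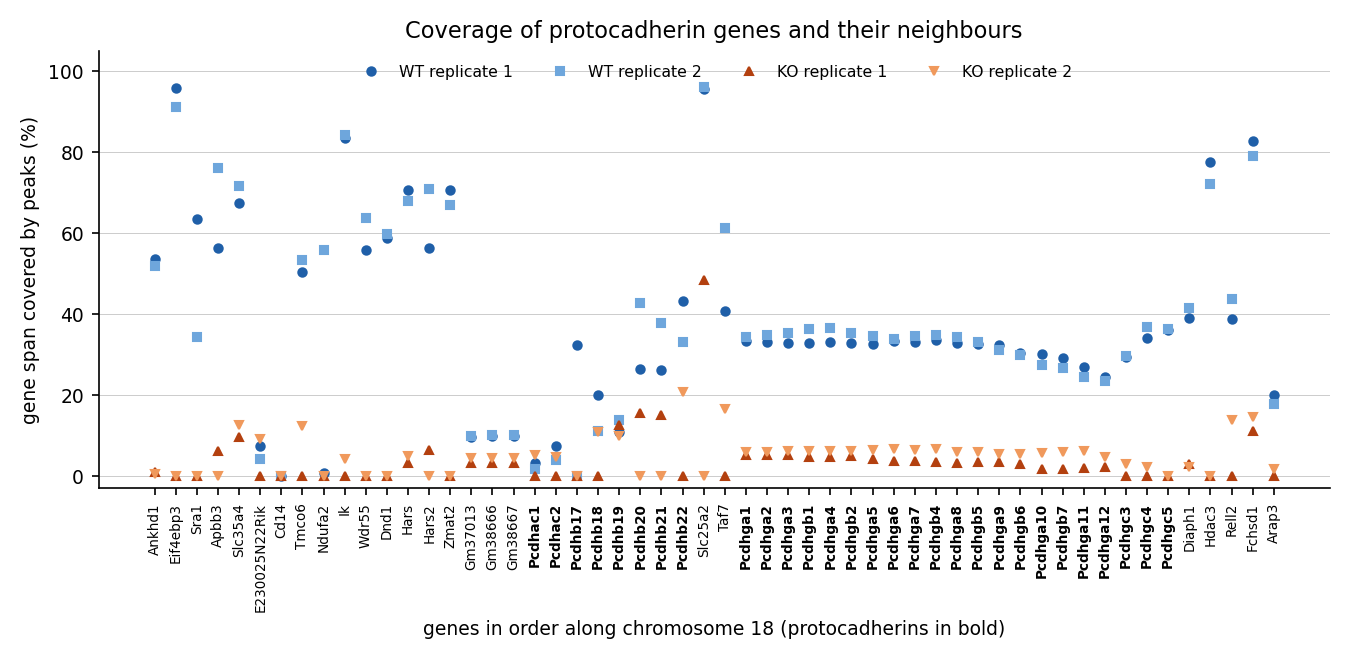
Percent of each gene's span under H3K36me3 peaks (vertical axis) for genes in order along chromosome 18, protocadherins in bold, with 1 point per library. Pcdha1 to Pcdha12 and Pcdhb1 to Pcdhb16 are not drawn. In WT the gamma genes form a plateau between 24.1% and 36.2%, close to Diaph1 and below most other neighbours. KO values are lower there. Once libraries are scaled to mean coverage, the mean difference turns positive for 17 of the 21 gamma genes, whose spans nest, and none of these passed. Divided by the covered share of the genome, the gamma array is at 3.74 and 3.99 in WT against 2.02 and 1.74 in KO.

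Non-clustered protocadherins, single genes elsewhere in the genome that lack this array structure, were mostly bare. Of 12 only Pcdh18 could be tested, and it fell, from 39.9% and 34.5% to 2.17% and 0% (limma adjusted p = 0.000746). Pcdh1, which lies beyond gamma on the same chromosome, was at 19.7%, 13.7%, 2.27% and 0%, and Pcdh20 at 17.5% in WT replicate 1 alone. The other 9 were below 4% in both WT libraries.

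Genes for chromatin regulators of the arrays were covered well above the arrays in WT. All 23 that could be tested of 25 fell, beside 92.6% of all tested genes. Their median was -54.1 points, against -47.7 over all tested genes. Genes with little KO coverage could be tested only through high WT coverage. Ctcf, whose product binds the promoters and enhancers of the arrays and shapes their loops, was at 50.5%, 53.9%, 0.726% and 0%. Smchd1, a repressor of the arrays, was at 63.0%, 61.1%, 4.68% and 7.16%. The list's largest falls were those of Setdb1 (an H3K9 methyltransferase, -83.9 points), Ehmt2 (-76.9) and Rest (a repressor of neuronal genes, -74.2). Its smallest were those of Lrif1 (-12.9), Stag1 (a cohesin subunit, -15.7) and Dnmt3b (a DNA methyltransferase, -21.9). Of the 24 genes for intracellular partners and proteases of protocadherins, 18 could be tested and all 18 fell, with a median of -44.4 points. Among the larger falls were those of Ncstn, a protease complex subunit (-81.2), and Cyfip1 of the WAVE complex (-58.3). With IgG lists Ncstn differed by -50.4 points and did not pass (limma adjusted p = 0.0590). With those lists 17 of 18 partner and protease genes fell, beside 91.4% of all tested genes. Fyn (-25.3), a kinase, Cyfip2 (-29.0) and Pdcd10 (-34.0) fell least.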

How the data were processed

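The deposited files were peak lists, 1 per H3K36me3 library and control (8 lists for 4 libraries, against Input and against IgG), each with an interval and a score per peak. The authors' score column was used only to rank peaks within a list (lowest 13.01 in the Input lists), and no source says what its scale is. Bowtie2 and GRCm38 are named in the submitters' processing notes; no source gives the caller's settings or the handling of multiply mapped reads. The lists hold no read counts, so depth is unknown and no counting interval is given. Coverage was the percent of a span under the union of peaks, with RefSeq gene spans of GRCm38. Python 3.11.15 (numpy 2.4.6, pandas 2.3.3) and R 4.3.3 with limma 3.58.1 were used. limma, with trend and robust moderation, was fitted to percent coverage of coding genes with a mean of at least 10%, with Benjamini-Hochberg adjustment over all of them and a threshold of 0.05, and was tested on simulated data. The members and gene lists were chosen with earlier results of these data known. All members, Setd2, coding genes inside or within 300 kb of the locus and, of each list, the 3 largest and 3 smallest falls could be named; 1 gene that this rule selects is not reported here. Ctcf, Smchd1, Vim, Col1a1, Pcdh1 and Pcdh20 were named beyond that rule, after their values were seen. Alternatives were IgG lists, a score cut, merging of peaks within 1 kb, left-out libraries, other coverage minimums, scaling, the replicate number as a block, moderation without the trend and robust options and windows of 5 kb.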

Additional observations from a re-analysis of the deposited data

How the results depend on the processing

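With 2 libraries a genotype and no read counts, depth limits could not be given, and weak mark below the peak threshold is not seen. Scaling each library to its mean coverage of coding genes left 4890 genes lower and 261 higher, 1 member lower (Pcdhgc5) and 1 higher (Pcdhb19), and moved the median difference over all tested genes from -47.7 to -16.7 and that of gamma from -28.3 to 2.57 points; by construction it takes out the genome-wide difference. Scaled differences that turned positive were Pcdhb18 12.6, Pcdhb19 44.5, Pcdhb20 19.2, Pcdhb21 20.05, Pcdhb22 19.5, Pcdhga1 6.05, Pcdhga2 5.49, Pcdhga3 6.08, Pcdhga4 4.49, Pcdhga5 4.72, Pcdhga6 3.33, Pcdhga7 3.29, Pcdhga8 1.17, Pcdhga9 1.48, Pcdhga11 2.57, Pcdhga12 1.39, Pcdhgb1 4.66, Pcdhgb2 5.66, Pcdhgb4 2.92, Pcdhgb5 1.51, Pcdhgb6 1.41 and Pcdhgb7 0.49 points. Divided by the covered share of the genome, the locus difference reversed to 0.0869. Genes lower numbered 10013 in the fit as reported and 5883 with a coverage minimum of 25%, which no member reached. Genes higher numbered 60 as reported, 21 with IgG lists, 16 with peaks at or above the median score, 492 (with 1 member, Pcdhb13) without a coverage minimum, where more genes were tested, and 18 at 25%; the cause of the other shifts was not tested. With libraries left out in turn, genes lower ranged from 8464 to 9236 and genes higher from 13 (without WT replicate 1) to 182 (without KO replicate 1), where the lone library of a genotype is assumed to vary like the others; members lower ranged from 17 to 22. The gamma difference ranged from -28.8 to -27.7 points, beta from 0.305 to 0.395, the locus from -7.69 to -6.02 and alpha from -1.06 (without KO replicate 2) to 2.86; Pcdhb19 ranged from -2.42 to 0.53, above 0 without WT replicate 2 (0.53) or KO replicate 2 (0.43). The deviations of same-numbered libraries correlated at -0.00333 over 10809 genes, so the numbers were not taken to pair them; with the replicate block 9993 genes were lower and 60 higher, and 21 members, all gamma, were lower. The gamma array kept its direction with IgG lists (-23.9), the score cut (-18.7), merged peaks (-34.3) and division by the genome share (-1.98), and the gamma windows with IgG lists (-42.4) and 5 kb windows (-35.3).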
